A study of Danio rerio with 16 samples.

Results

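The mitochondrial ribosomal protein genes were taken as every gene symbol of the count table that begins with *mrpl* or *mrps* and goes on with a digit. There were 74 such genes among 15419, of which 46 were *mrpl* genes, named for the large subunit of the mitochondrial ribosome, and 28 were *mrps* genes, named for the small subunit. They were measured by poly(A) RNA-sequencing in 16 libraries of zebrafish (Tubingen strain) hearts dissected at 48 hpf. The 8 DKO libraries came from embryos homozygous for frame-shifting mutations in both *rbfox1l* and *rbfox2*, which encode RNA-binding splicing regulators (*rbfox1l*-/-; *rbfox2*-/-), and the 8 control (CTRL) libraries came from their siblings. The labels call the controls sibling control and the deposited design calls them wild type, so that the alleles they carried are not further given. All embryos carried the *myl7:GFP* reporter of heart muscle, each library was 1 pool of whole hearts, and both mutations were present in every cell and not only in heart muscle.

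The mitochondrial ribosome translates the few mRNAs of the mitochondrial genome, which encode core subunits of the respiratory chain and of ATP synthase. Its RNAs are made inside the organelle, but its proteins are encoded in the nucleus, translated in the cytosol and imported. Some are counterparts of bacterial ribosomal proteins, marked by the letters u or b in the uniform nomenclature (uL3m, bL12m), and others occur only in mitochondria (mL48, mS33). The assembled particle holds most of these proteins once, so that levels of their mRNAs relative to each other are of interest as well as their sum. In people, mutations in *MRPL3* and *MRPL44* cause cardiomyopathy of infancy.

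Reads counted on genes numbered 9321265 to 18783628 in DKO and 8809208 to 12991978 in CTRL libraries. The targeted genes were lower in DKO, *rbfox1l* at 37.7 to 93.8 CPM in DKO against 261 to 666 CPM in CTRL and *rbfox2* at 23.5 to 39.6 CPM in DKO against 47.6 to 154 CPM in CTRL, with no overlap (CPM, the count scaled to library size with TMM factors). Several lists of cell type markers moved with genotype. Of 23 tested cardiomyocyte markers, 16 were lower in DKO at an adjusted p under 0.05, and their summed level was 8018 to 19459.5 CPM in DKO and 18289.6 to 36128 CPM in CTRL. *nkx2.5*, *nppa* and *gata5* were present in every library. The 10 tested haemoglobin genes summed to 8.07 to 68.1 CPM in DKO and 3641 to 9338 CPM in CTRL. Epidermal markers were higher in DKO for 12 of 15 genes, with sums of 24337 to 52691.5 CPM in DKO and 7467 to 30601.5 CPM in CTRL. At the same threshold, 10 of 12 pharyngeal arch and neural crest markers and 8 of 10 leukocyte markers were higher in DKO. Of 19 endocardial and endothelial markers, 11 were lower and 1 was higher. Among 10 other red cell markers 7 were lower, as were 3 of 7 of outflow tract smooth muscle and 1 of 11 of skeletal muscle. Higher were 3 of 11 neuron markers and 2 of 9 of liver, yolk and endoderm. Among 5 epicardial markers 1 was lower and 1 higher. For all genes tested the shares were 13.9% lower and 13.2% higher. In whole-heart RNA, fewer cells of a type and less RNA per cell cannot be told apart. For the ventricle at the stage of dissection, the study reports like numbers of cardiomyocytes in mutants and controls, with smaller cells in the mutants. That count does not give the share of heart muscle cells in the sequenced pools, which was not tested.

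The question addressed here was how far the mRNAs for the subunits of the mitochondrial ribosome differ between DKO and CTRL hearts, together and one by one. Under TMM scaling all 64 tested members had a lower level in DKO, whereas scaling the libraries on the cardiomyocyte markers gave 11 members a lower and 53 a higher level. The 23 markers had themselves a median log2 fold change of −0.87 under TMM, from −1.49 (*casq2*) to 0.07 (*kcnh6a*). Scaling on them shifted the median of all genes by 0.92 on the log2 scale, so a member that fell by less than about this amount takes a higher value there. Under it 4 members rose (*mrpl58*, *mrps10*, *mrps18b* and *mrps30*) and none fell at an adjusted p under 0.05 in edgeR's test, beside 76% of all genes that rose. The share of all genes with a lower value under TMM was 47.7%. With edgeR's quasi-likelihood F-test, 63 of the 64 fell at an adjusted p under 0.05, where 13.9% of the 11750 genes tested did so, and 0 rose, where 13.2% of all genes did. DESeq2 likewise gave 63 lower and 0 higher, and at an unadjusted p under 0.05 edgeR's fit also gave 63 lower and 0 higher. The falls ran from 1.11-fold to 2.14-fold with a median of 1.64-fold, and only 5 members changed more than 2-fold. The median log2 fold change (DKO over CTRL) was −0.71 over the members and 0.02 over all genes tested.

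Both subunits moved by a like amount. The median log2 fold change was −0.75 over the 41 tested *mrpl* genes, of which 40 fell, and −0.70 over the 23 tested *mrps* genes, of which 23 fell, and both medians turned positive under scaling on cardiomyocyte markers. With the thresholds of the study's methods, which ask for an adjusted p under 0.05, a change over 1.5-fold and an FPKM (the count scaled to gene length and library size) over 5 in at least 1 library, 41 members were called downregulated, 28 *mrpl* and 13 *mrps* genes, where 4.66% of all genes tested were, and 0 were called upregulated, where 3.32% of all genes were. In 42 members the groups did not overlap, all DKO values being lower, which held for 4.38% of all genes tested.

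**Figure D1:**
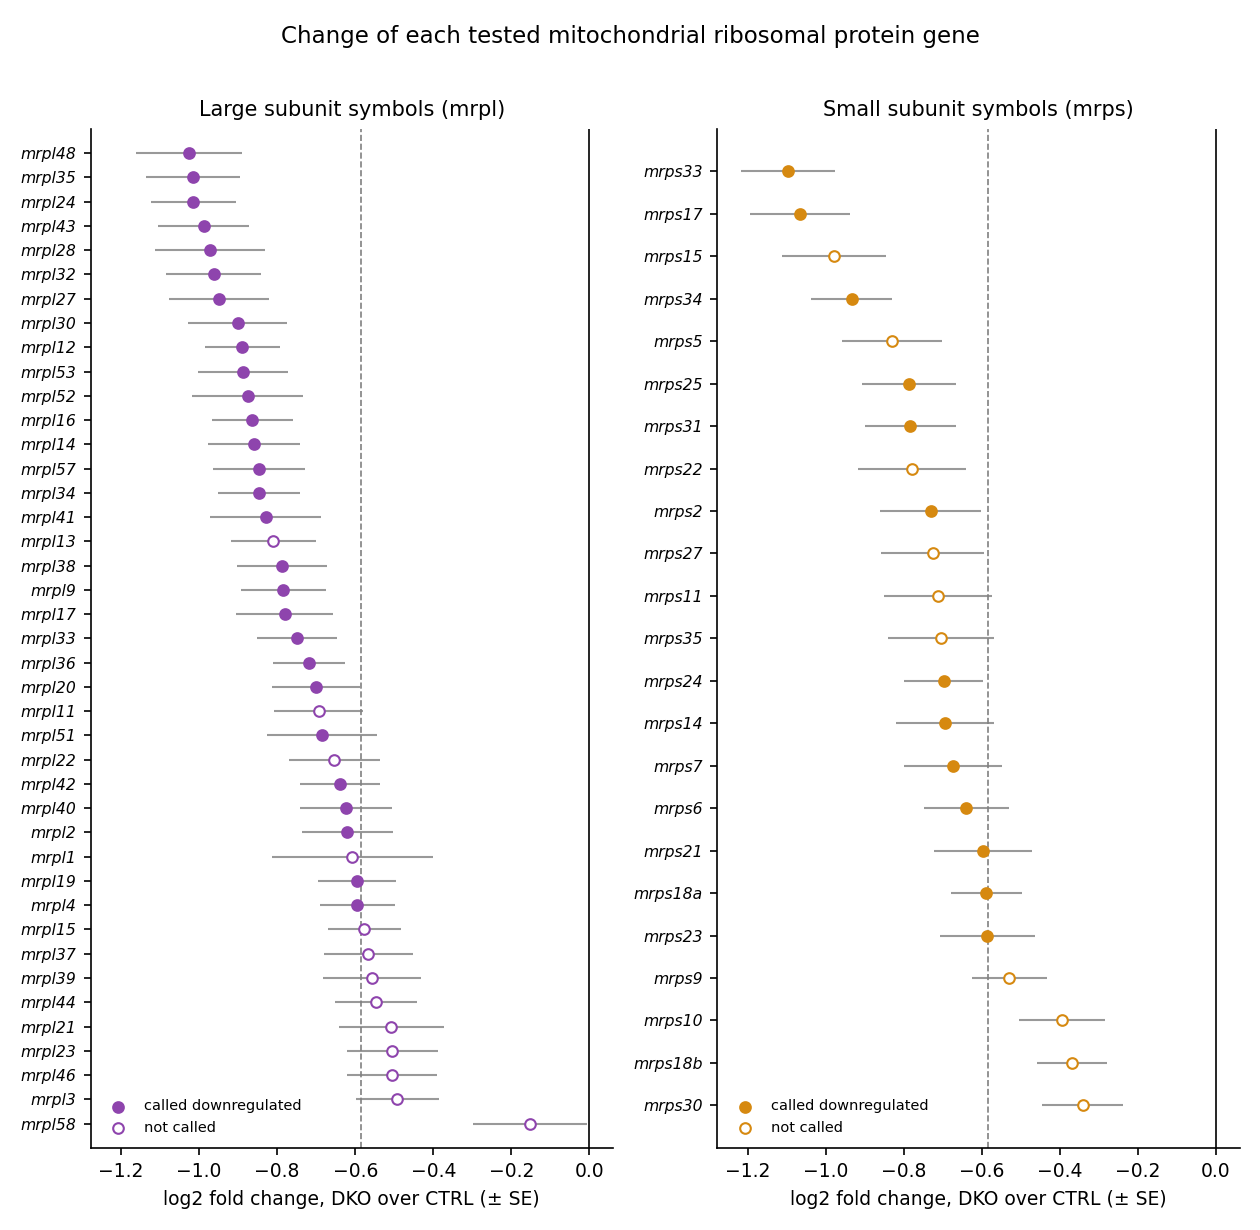
Log2 fold change (DKO over CTRL, TMM scaling) for each of the 64 tested genes, with a standard error taken from the F statistic. The *mrpl* genes are on the left and the *mrps* genes on the right, filled where the gene was called downregulated. The dashed line marks 1.5-fold lower, and all values lie below 0, from −1.10 (*mrps33*) to −0.15 (*mrpl58*), although 53 of the 64 lie above 0 when libraries are scaled on cardiomyocyte markers.

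The 23 tested members that were not called fell into groups by threshold. Of these, 10 fell by more than 1.5-fold but did not pass the FPKM threshold, namely *mrpl1*, *mrpl11*, *mrpl13*, *mrpl22*, *mrps5*, *mrps11*, *mrps15*, *mrps22*, *mrps27* and *mrps35*. A further 8 passed the FPKM threshold but fell by less than 1.5-fold, namely *mrpl15*, *mrpl21*, *mrpl37*, *mrpl39*, *mrpl44*, *mrpl46*, *mrps10* and *mrps18b*. Another 4, *mrpl3*, *mrpl23*, *mrps9* and *mrps30*, met neither threshold, and *mrpl23* has no FPKM value. Only *mrpl58* had an adjusted p above 0.05. On the adjusted p and the fold alone, 51 of the 64 would be called, where 8.54% of all genes tested would.

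The remaining 10 members did not pass the filter on low counts. *mrpl10*, *mrpl18*, *mrpl45*, *mrps16* and *mrps18c* are listed at 0 in all 16 libraries, as are 1020 genes of the table. *mrpl47*, *mrpl54*, *mrps26*, *mrps28* and *mrps36* had 9, 6, 4, 4 and 18 reads over all libraries together. In mammals, *MRPL10*, *MRPL18* and *MRPS16* encode core parts of the particle, so these entries are reported as listed values and not as absence of the mRNA. The human counterpart of *mrps36* has since been assigned to the oxoglutarate dehydrogenase complex.

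Summed over the 64 genes, the level was 2868 to 3575 CPM in DKO and 4464 to 6757 CPM in CTRL (3297 ± 270.5 in DKO and 5462 ± 753 in CTRL, mean ± SD, n = 8 pools each). The *mrpl* genes summed to 1885 to 2338 CPM in DKO and 2941 to 4432 CPM in CTRL, and the *mrps* genes to 983 to 1239.9 CPM in DKO and 1523 to 2325 CPM in CTRL. Neither subunit's sums overlapped between the groups. As a share of all reads on genes, which does not depend on TMM factors, the members took 0.315% to 0.385% in DKO and 0.457% to 0.583% in CTRL.

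In the summed level, the CTRL libraries varied more than the DKO libraries. CTRL replicate 5 had the highest sum of 6757 CPM, and CTRL replicate 2 the lowest of the controls at 4464 CPM, with all 64 members below the CTRL median. In each DKO library, 54 to 62 of the 64 members lay below the lowest of the 8 CTRL libraries. The matching share of all genes tested was not computed for single libraries, so this count has no background beside it. Among controls, CTRL replicate 2 held the lowest value for 29 members and CTRL replicate 4 for 24. CTRL replicate 2 also had the lowest cardiomyocyte marker sum of the controls (18289.6 CPM), while DKO replicate 8 had the highest of the mutants (19459.5 CPM). The members summed to 3575 CPM in DKO replicate 8 and 4464 CPM in CTRL replicate 2, a comparison of 1 library with 1. DKO replicates 1 and 4 had the lowest marker sums of the mutants (8018 and 8602 CPM) and their lowest member sums (2868 and 3014 CPM). CTRL replicates 2 and 4 had the lowest marker sums of the controls (18289.6 and 21613.5 CPM) and their lowest member sums (4464 and 4757 CPM). Not every library kept this order. CTRL replicate 5, with the highest member sum, had a marker sum of 22388 CPM. CTRL replicate 1, with the highest marker sum of 36128 CPM, had a member sum of 5811 CPM. The part of cell composition in the fall was not tested.

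A comparison within each library does not depend on how libraries are scaled. The mean log2 CPM of the members minus that of 72 tested cytosolic ribosomal protein genes was −3.50 to −2.73 in DKO and −2.69 to −2.27 in CTRL, without overlap. This measure is not free of cell composition, whose part was not tested. Its lowest value was in DKO replicate 1, which had the lowest cardiomyocyte marker sum (8018 CPM). The highest was in CTRL replicate 1, which had the highest marker sum (36128 CPM). DKO replicate 8 stood at −2.73 and CTRL replicate 2 at −2.69. Within each group the measure was mostly higher where the marker sum was higher. Ordered from lowest to highest, CTRL replicates ran 2, 4, 5, 6, 8, 7, 3 and 1 in the measure. Their marker sums ran 2, 4, 5, 8, 6, 7, 3 and 1. DKO replicates ran 1, 4, 2, 5, 7, 3, 6 and 8 in the measure. Their marker sums ran 1, 4, 5, 2, 6, 7, 3 and 8. Of these cytosolic genes 1 was lower at an adjusted p under 0.05 in edgeR's fit. Their median log2 fold change was −0.05 under TMM factors, 0.10 with library size alone and 0.93 under scaling on cardiomyocyte markers.

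**Figure D2:**
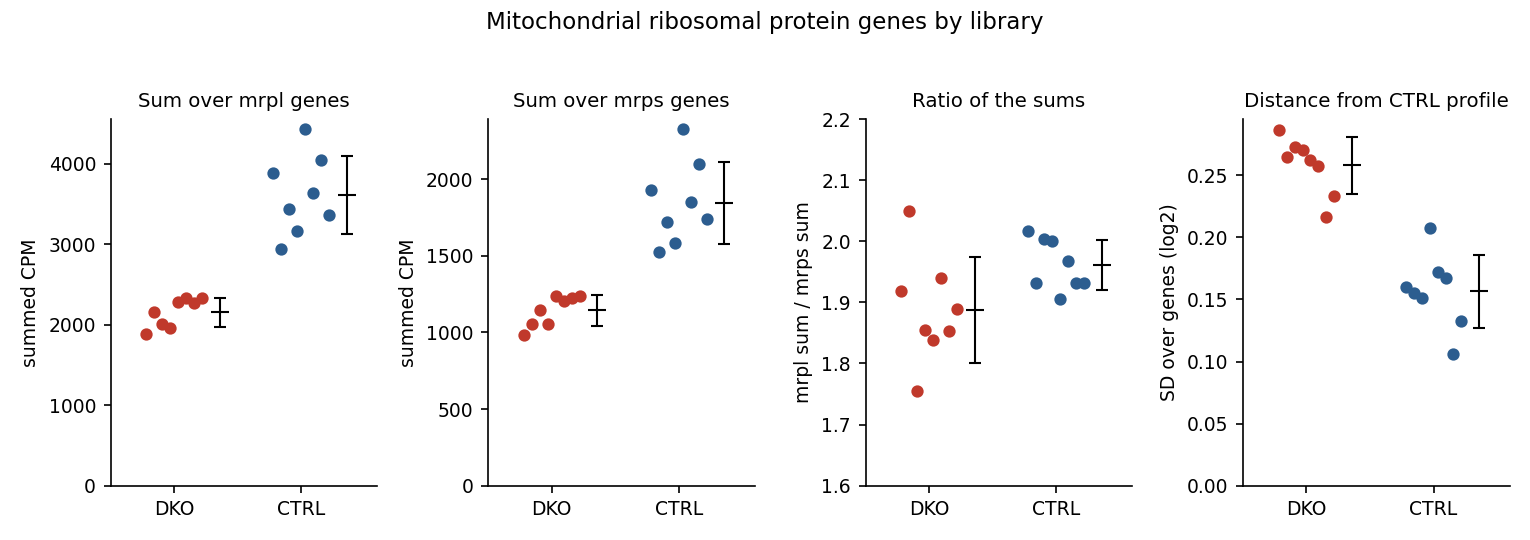
Values by library, DKO left and CTRL right, with mean and SD (black) over 8 pools: summed CPM of the 41 *mrpl* genes, summed CPM of the 23 *mrps* genes, the ratio of these sums (axis from 1.6), and the spread of the members around the mean CTRL profile. The sums under TMM scaling and the spread separate the groups, whereas the ratios (1.75 to 2.05 in DKO, 1.91 to 2.02 in CTRL) overlap.

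The balance between the subunits overlapped between the groups, with most DKO libraries at its lower end. The ratio of summed *mrpl* to summed *mrps* CPM was 1.75 to 2.05 in DKO and 1.91 to 2.02 in CTRL libraries (1.89 ± 0.087 in DKO and 1.96 ± 0.041 in CTRL, mean ± SD, n = 8 pools each), and 5 of 8 DKO libraries lay below all CTRL libraries. The mean log2 CPM of the *mrpl* genes minus that of the *mrps* genes differed by −0.03 between DKO and CTRL, with ranges of −0.14 to 0.11 in DKO and −0.02 to 0.04 in CTRL that overlapped, and 4 of 8 DKO libraries lay below all CTRL libraries. Assigning *mrps18a* and *mrps30* to the large subunit, where mammalian structures place their products (mL66 and mL65), turned this difference to 0.0042, and the grouping was chosen after the values had been seen. DKO replicates 2 and 3 were the extremes of both measures.

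The proportions between genes in DKO differed from those in CTRL. After the mean of the members was subtracted in each library, the spread (SD over genes, log2) around the CTRL profile was 0.216 to 0.286 in DKO and 0.106 to 0.207 in CTRL. For each CTRL library the profile was made from the other 7. Measured around the profile of the other 7 DKO libraries, the spread was 0.182 to 0.218 in DKO, which overlapped the CTRL range. The order of the genes was nearly kept, with a Spearman correlation of 0.946 between the mean CPM in DKO and in CTRL across 64 genes, which are not independent and differ in length. The size of the change bore little relation to level, with a Spearman correlation of 0.086 across the same genes.

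Members with the largest fall came from both subunits. *mrps33* (mS33, a small subunit protein found only in mitochondria) ranged from 26.8 to 42.4 CPM in DKO (median 33.2) and from 46.9 to 85.2 CPM in CTRL (median 74.2), with a log2 fold change of −1.10 (SE 0.12, edgeR adjusted p = 1.00e-06). *mrps17* (uS17m, counterpart of bacterial S17) ranged from 15.5 to 24.6 CPM in DKO (median 20.1) and from 31.3 to 51.8 CPM in CTRL (median 44.3), with a log2 fold change of −1.07 (SE 0.13, edgeR adjusted p = 3.28e-06). In both genes the highest DKO value was lower than the lowest CTRL value, as in 42 of the 64 tested members.

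Among large subunit genes, *mrpl48* (mL48, in the central protuberance of the mammalian particle) was at 23.6 to 39.3 CPM in DKO (median 29.9) and 46.6 to 72.8 CPM in CTRL (median 65.6), a log2 fold change of −1.03 (SE 0.14). *mrpl35* (bL35m) was at 27.4 to 42.4 CPM in DKO (median 30.6) and 55.0 to 89.5 CPM in CTRL (median 64.6), a log2 fold change of −1.02 (SE 0.12). *mrpl24* (uL24m, near the exit of the tunnel for the new protein) was at 34.8 to 52.7 CPM in DKO (median 42.3) and 68.3 to 111 CPM in CTRL (median 82.9), a log2 fold change of −1.02 (SE 0.11). None of these overlapped between groups, which held for 42 of the 64 tested members and 4.38% of all genes tested. Their adjusted p-values in edgeR's test were 9.77e-06, 2.78e-06 and 8.37e-07. In the RefSeq annotation of GRCz12tu 19 of the 64 tested members overlap another gene. Among them, *mrpl24* and *mrpl9* each overlap *mllt11*, and *mrps17* overlaps LOC141379904. Whether the count used strand is not given in the sources used here.

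At the other end stood *mrpl58* (mL62), whose human counterpart ICT1 is a peptidyl-tRNA hydrolase that frees stalled ribosomes besides being a part of the large subunit. It ranged from 8.14 to 12.3 CPM in DKO (median 10.7) and from 8.88 to 14.4 CPM in CTRL (median 12.1), with a log2 fold change of −0.15 (SE 0.15, edgeR adjusted p = 0.498). Only 1 DKO library lay below all CTRL libraries. The value rested on 80 to 220 reads in each library and 2033 in all, the fewest of the tested members, with *mrpl1* next at 70 to 211 in each library and 2148 in all.

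*mrps30*, *mrps18b*, *mrps10* and *mrpl3* fell, but by less than most. *mrps30* ranged from 60.5 to 93.0 CPM in DKO (median 80.1) and from 86.1 to 136 CPM in CTRL (median 101), with a log2 fold change of −0.34 (SE 0.10, edgeR adjusted p = 0.0186). *mrps18b* (mS40), a paralog of *mrps18a* related to bacterial S18, ranged from 65.9 to 78.7 CPM in DKO (median 72.2) and from 74.4 to 108 CPM in CTRL (median 93.5), with a log2 fold change of −0.37 (SE 0.09, edgeR adjusted p = 0.00397). In each of these genes 5 of 8 DKO libraries lay below all CTRL libraries.

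*mrps10* (uS10m) ranged from 42.6 to 52.3 CPM in DKO (median 48.7) and from 47.6 to 86.6 CPM in CTRL (median 64.8), with a log2 fold change of −0.40 (SE 0.11, edgeR adjusted p = 0.0100), and 3 of 8 DKO libraries lay below all CTRL libraries. *mrpl3* (uL3m), a core protein that reaches towards the site of peptide bond formation, ranged from 59.5 to 91.1 CPM in DKO (median 73.5) and from 88.0 to 128 CPM in CTRL (median 99.4), with a log2 fold change of −0.49 (SE 0.11, edgeR adjusted p = 0.00171), and 7 of 8 DKO libraries lay below. With library size alone in place of TMM factors, *mrps10*, *mrps18b* and *mrps30* no longer passed, at adjusted p-values of 0.0710, 0.0535 and 0.170 in edgeR's test. Under scaling on cardiomyocyte markers *mrpl58*, *mrps10*, *mrps18b* and *mrps30* were higher in DKO, by 0.80, 0.56, 0.56 and 0.56 on the log2 scale.

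*mrpl1* (uL1m), part of the mobile stalk beside the exit site for tRNA, had the widest error. It ranged from 5.92 to 13.9 CPM in DKO (median 9.41) and from 8.28 to 21.0 CPM in CTRL (median 14.8), with a log2 fold change of −0.61 (SE 0.21, edgeR adjusted p = 0.0322). The fall did not pass when DKO replicate 1, 3, 6 or 7 or CTRL replicate 1, 3, 5, 7 or 8 was left out, with adjusted p-values of 0.0126 to 0.0717 in edgeR's test over the 16 single omissions, nor with library size alone (edgeR adjusted p = 0.0898).

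**Figure D3:**
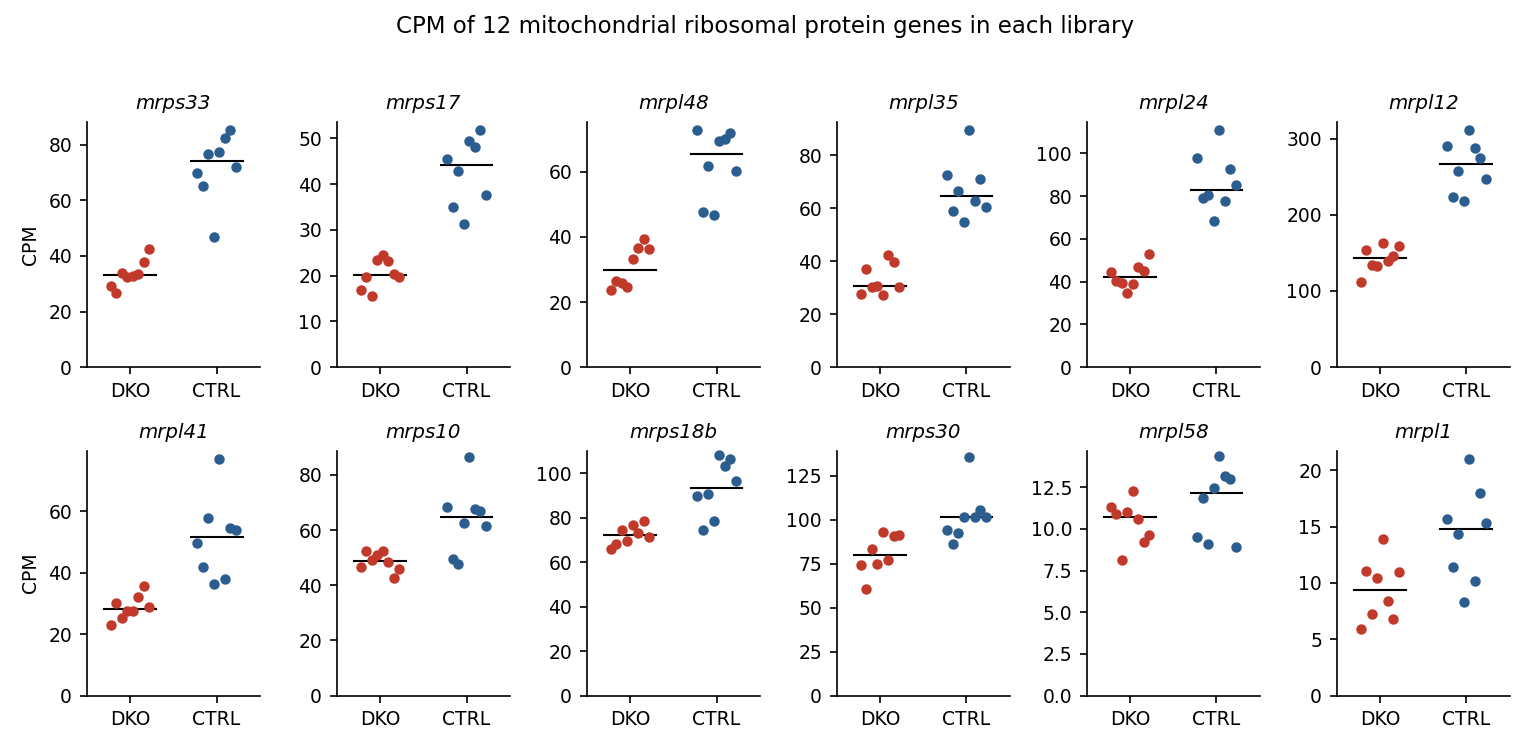
CPM (TMM scaling, linear axis from 0) of 12 members in each library, DKO left and CTRL right, with the group median as a line. In *mrps33*, *mrps17*, *mrpl48*, *mrpl35*, *mrpl24*, *mrpl12* and *mrpl41* the groups do not overlap, while in *mrps10*, *mrps18b*, *mrps30*, *mrpl58* and *mrpl1* they do. Under scaling on cardiomyocyte markers *mrpl58*, *mrps10*, *mrps18b*, *mrps30*, *mrpl41* and *mrpl1* have higher DKO values, and the value of *mrpl12* is not given here.

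*mrpl41* (mL41) is the member that the study also measured by quantitative RT-PCR, and the primers are shown because they define the amplified transcript.
Forward primer: gccatgatcccagagtttgt
Reverse primer: ccttcctcaatgtccctctg
In the sequenced libraries *mrpl41* ranged from 23.1 to 35.6 CPM in DKO (median 28.3) and from 36.4 to 77.1 CPM in CTRL (median 51.8), without overlap. Its log2 fold change was −0.83 (SE 0.14, edgeR adjusted p = 1.92e-04). Relative to the other members it did not pass the test, with a difference of −0.10 (SE 0.12, edgeR adjusted p = 0.458).

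By position in the mammalian particle, the median log2 fold change was −0.89 over 3 tested proteins of the stalk that recruits translation factors and its base, −0.82 over 10 of the central protuberance and −0.60 over 6 around the exit tunnel, beside −0.71 over all members, and these were not tested against each other. The 3 tested proteins of the stalk and its base had log2 fold changes of −0.89 (*mrpl12*), −0.89 (*mrpl53*) and −0.69 (*mrpl11*). *mrpl12*, which encodes the stalk protein itself, was at 112 to 162 CPM in DKO (median 143) and 218 to 312 CPM in CTRL (median 266), without overlap, and its share of all reads on members was 4.31% ± 0.31 in DKO and 4.84% ± 0.26 in CTRL (SD, n = 8 pools each). Relative to the other members *mrpl12* did not pass the test, with a difference of −0.17 (SE 0.08, edgeR adjusted p = 0.0559). Of the 6 around the exit tunnel (*mrpl17*, *mrpl22*, *mrpl23*, *mrpl24*, *mrpl39* and *mrpl44*), *mrpl24* had the largest fall, at −1.02, and *mrpl23* the smallest, at −0.51.

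Of the 10 tested central protuberance genes 9 fell at an adjusted p under 0.05 in edgeR's test and 8 were called. Of all 64 tested members 63 fell and 41 were called, and of all genes tested 13.9% fell and 4.66% were called. *mrpl27*, *mrpl33*, *mrpl35*, *mrpl38*, *mrpl48*, *mrpl52* and *mrpl57* had log2 fold changes of −1.03 to −0.75, and those of *mrpl40*, *mrpl46* and *mrpl58* were −0.62, −0.51 and −0.15. Genes whose uniform name begins with u or b and those whose name begins with m had like medians, at −0.71 over 38 tested genes and −0.72 over 26. The latter include *mrps18a* (mL66) and *mrps18b* (mS40), although these are related to bacterial S18. Within the large subunit by structure these medians were −0.77 over 26 genes with u or b and −0.64 over 17 with m, and in the small subunit −0.70 over 12 and −0.78 over 9. These classes go by the uniform names and were compared without a test.

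To ask which members changed by another amount than the family, the libraries were scaled to the members themselves, so that the median member has no change. This shifted the median of all genes by 0.71 on the log2 scale. Of the 64 members, 16 then differed at an adjusted p under 0.05 in edgeR's test, 10 with a further fall and 6 with a lesser fall. Of all genes tested, 74.8% passed in this fit, 2.77% lower and 72.0% higher, so that an adjusted p is here close to the unadjusted one, and some of the 16 may have passed by chance.

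The 10 members with a further fall were *mrps33*, *mrps17*, *mrpl48*, *mrpl35*, *mrpl24*, *mrpl43*, *mrps15*, *mrpl28*, *mrpl32* and *mrps34*, with relative log2 changes of −0.38 to −0.21. *mrps33* had a relative change of −0.38 (SE 0.11, edgeR adjusted p = 0.00493). The 6 with a lesser fall were *mrpl46*, *mrpl3*, *mrps10*, *mrps18b*, *mrps30* and *mrpl58*, with relative log2 changes of 0.22 to 0.57. *mrpl58* had a relative change of 0.57 (SE 0.16, edgeR adjusted p = 0.00307) and *mrps30* of 0.38 (SE 0.10, edgeR adjusted p = 0.00151).

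*mrps18b* gave the clearest separation. Its log2 level relative to the mean of the members was 0.54 to 0.78 in DKO and 0.16 to 0.45 in CTRL, so that all 8 DKO libraries lay above all 8 CTRL libraries, although its own CPM was lower in DKO. Its relative change was 0.35 (SE 0.08, edgeR adjusted p = 7.88e-04). The gene was singled out from the 64 members for its separation in these same libraries, so the separation adds no support to that change. In the annotation of GRCz12tu *mrps18b* overlaps *abcf1*. Reads left ambiguous between genes anywhere in the genome were 0.0392% to 0.0524% of all reads in DKO and 0.0287% to 0.0411% in CTRL libraries. The part of them that lay on *mrps18b* and *abcf1* is not given, so that these shares do not bound the effect of the overlap.

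Over 20 alternatives that left out each library in turn, changed the filter or the tool, used the summed counts of the members or blocked the replicate number, 10 of the 16 passed every time. These were *mrps33*, *mrps17*, *mrpl48*, *mrpl35* and *mrpl24* with a further fall and *mrpl3*, *mrps10*, *mrps18b*, *mrps30* and *mrpl58* with a lesser fall. *mrpl43* and *mrps34* missed the threshold once each, and *mrpl28*, *mrpl32*, *mrpl46* and *mrps15* passed in 8 to 10 of the 20.

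**Figure D4:**
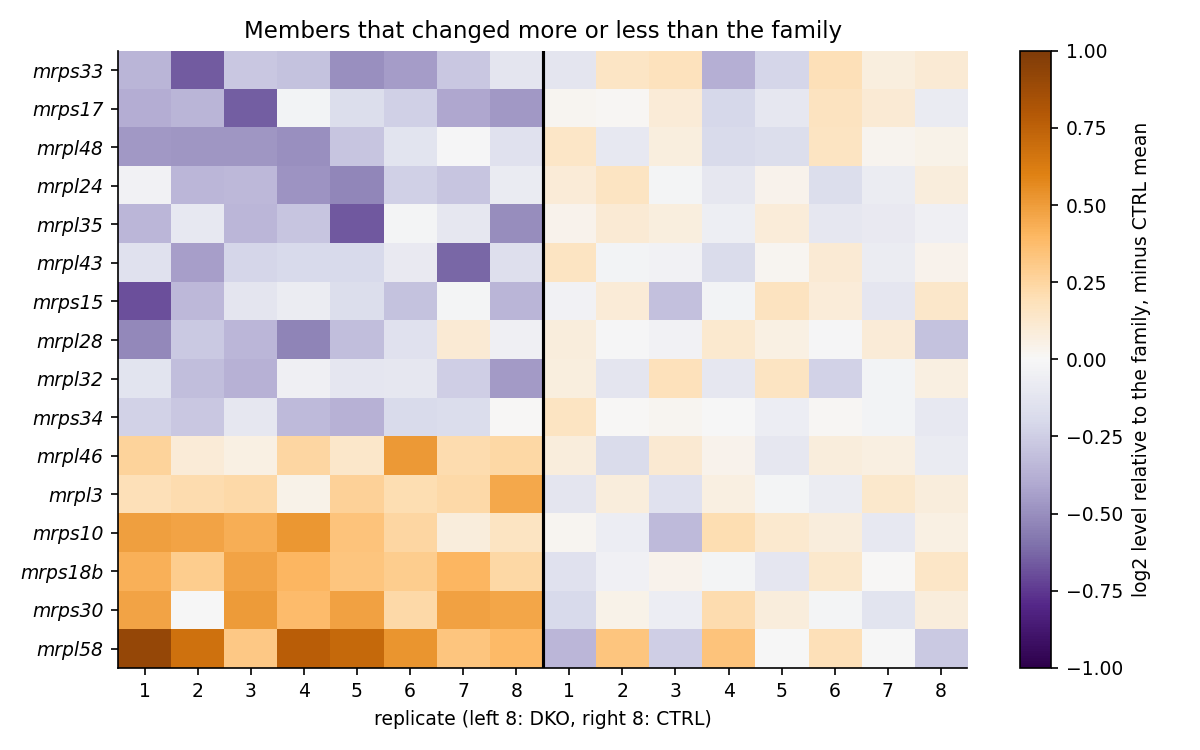
Log2 level of the 16 members that differed from the family, after subtraction of the mean of all 64 members in each library and of the gene's CTRL mean, with DKO replicates on the left of the line and CTRL replicates on the right. The upper 10 genes are mostly negative (purple) in DKO and the lower 6 mostly positive (orange), and *mrps18b* is positive in all 8 DKO libraries.

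The other members with a further fall each fell without overlap between the groups, as 42 of the 64 tested members did (4.38% of all genes tested). They were picked for their fall in these same libraries, so the lack of overlap is no added support. *mrpl43* (mL43) ranged from 36.4 to 53.3 CPM in DKO (median 43.7) and from 66.7 to 113 CPM in CTRL (median 90.0). *mrpl28* (bL28m) ranged from 28.5 to 53.3 CPM in DKO (median 39.5) and from 59.1 to 102 CPM in CTRL (median 74.9). *mrpl32* (bL32m), which in yeast and mouse is cut by the m-AAA protease on import before it joins the ribosome, ranged from 35.2 to 47.7 CPM in DKO (median 40.3) and from 59.7 to 111 CPM in CTRL (median 81.4). Their log2 fold changes were −0.99, −0.97 and −0.96 under TMM scaling.

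*mrps15* (uS15m) ranged from 24.01 to 46.5 CPM in DKO (median 38.8) and from 56.3 to 104 CPM in CTRL (median 76.4), and its lowest DKO value was that of replicate 1. *mrps34* (mS34) ranged from 84.4 to 123 CPM in DKO (median 98.3) and from 156 to 227 CPM in CTRL (median 187). The log2 fold changes were −0.98 and −0.93. *mrpl46* (mL46) was at 36.4 to 55.9 CPM in DKO (median 42.1) and 43.9 to 72.2 CPM in CTRL (median 63.7), overlapping, with a log2 fold change of −0.51 (SE 0.12, edgeR adjusted p = 0.00263).

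Levels between genes can be compared only per length, for which the deposited FPKM were used. The length they imply was close to the gene with its introns. Across 63 members it correlated with the gene's span in RefSeq's GRCz12tu annotation (Spearman 0.947, median ratio 0.9996), and it ran from 1.05 kb (*mrpl17*) to 62.9 kb (*mrpl11*). A short gene therefore ranks high and a gene with long introns low, and the order below is one of FPKM and not of mRNA copies. *mrpl11* reached at most 1.73 FPKM at 48.8 to 64.1 CPM in DKO and 62.6 to 126 CPM in CTRL.

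In FPKM, *mrpl17* (bL17m, 38.7 to 62.2 in DKO with median 47.6, 61.8 to 86.6 in CTRL with median 76.5), *mrpl20* (bL20m, 33.2 to 52.1 in DKO with median 44.7, 56.2 to 72.1 in CTRL with median 63.0) and *mrpl30* (uL30m, 23.7 to 34.4 in DKO with median 31.2, 40.8 to 68.8 in CTRL with median 49.7) stood highest among the *mrpl* genes. The lowest were *mrpl13* (uL13m, medians 1.58 in DKO and 2.67 in CTRL), *mrpl1* (medians 1.04 in DKO and 1.47 in CTRL) and *mrpl11* (uL11m, medians 0.941 in DKO and 1.37 in CTRL). Neighbours in this order overlapped in their ranges within each group, except *mrpl13* (2.05 to 3.08) and *mrpl1* (0.850 to 1.94) in CTRL. These are ranges over a group, and the order of the genes within each library was not examined.

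Among the *mrps* genes the highest FPKM were those of *mrps18a* (26.5 to 34.5 in DKO with median 29.0, 34.2 to 46.6 in CTRL with median 39.8), *mrps14* (uS14m, 15.3 to 27.0 in DKO with median 21.6, 26.3 to 38.8 in CTRL with median 29.4) and *mrps7* (uS7m, 15.4 to 23.2 in DKO with median 18.3, 19.2 to 35.8 in CTRL with median 25.2). The lowest were *mrps5* (uS5m, medians 1.45 in DKO and 2.09 in CTRL), *mrps9* (uS9m, medians 1.23 in DKO and 1.57 in CTRL) and *mrps22* (mS22, medians 1.001 in DKO and 1.498 in CTRL). Again neighbours overlapped within each group, except *mrps5* (1.91 to 2.49) and *mrps9* (1.39 to 1.75) in CTRL. All 12 genes named for their FPKM fell, with log2 fold changes in CPM of −0.90 (*mrpl30*) to −0.53 (*mrps9*).

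**Figure D5:**
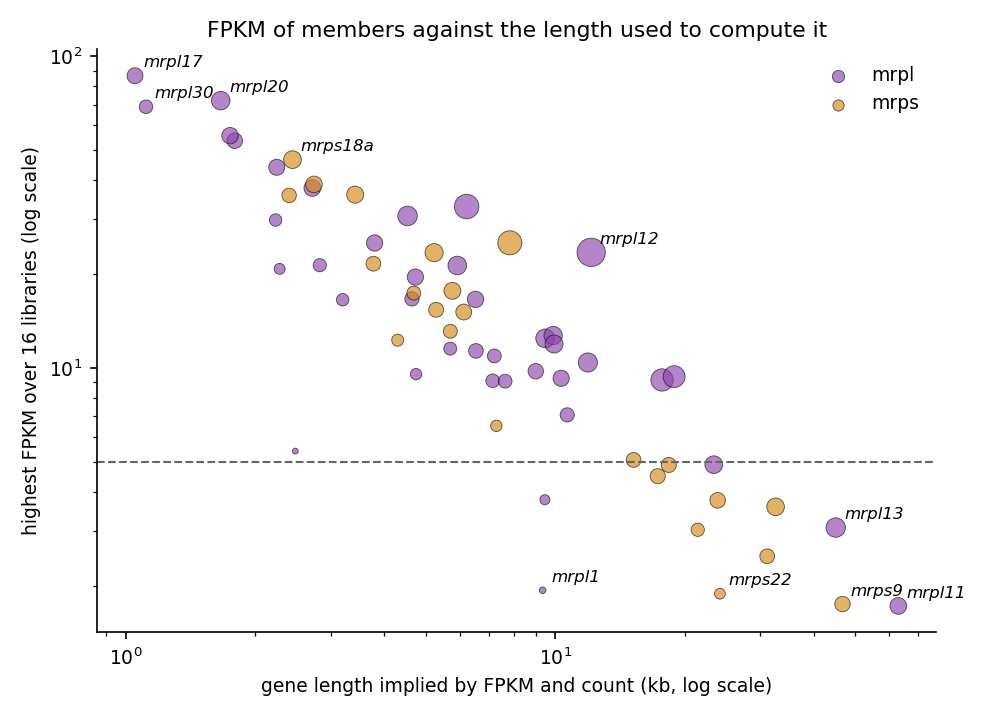
Highest FPKM of each of 63 members over the 16 libraries against the gene length that the FPKM and counts imply, both on log scales, with *mrpl* in purple, *mrps* in orange and the area of a point in proportion to mean CTRL CPM. The dashed line is the threshold of 5 FPKM, and 13 members lie below it, most of them long genes such as *mrpl13* and *mrpl11*.

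The neighbourhood of the family was described from lists of mitochondrial translation genes. Of the proteins of the particle with another kind of symbol, 4 were tested and all 4 fell and were called, namely *chchd1* (mS37), *aurkaip1* (mS38), *ptcd3* (mS39) and *dap3* (mS29, a GTP-binding protein), with a median log2 fold change of −0.70. At the same thresholds 13.9% of all genes tested fell and 4.66% were called. *chchd1* was at 70.0 to 83.5 CPM in DKO (median 71.5) and 102 to 144 CPM in CTRL (median 128), a log2 fold change of −0.78 (SE 0.08, edgeR adjusted p = 8.74e-07). *dap3*, the smallest of these, changed by −0.59 (SE 0.10, edgeR adjusted p = 1.31e-04).

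For factors that assemble and serve the particle the shares are to be read beside the 13.9% of all genes that fell and the 4.66% called downregulated, and their difference from the members was not tested. Of 22 tested assembly genes, 11 fell at an adjusted p under 0.05 and 2 were called, with a median log2 fold change of −0.39. *c1qbp*, whose mouse counterpart is needed for mitochondrial translation, fell by 1.01 on the log2 scale (SE 0.12, edgeR adjusted p = 3.28e-06), and *mrm1*, a methyltransferase of the large ribosomal RNA, had a value of 0.02 (SE 0.30). Of 14 tested translation factors and mRNA partners, 7 fell and 2 were called, with a median of −0.48. *slirp*, which with *lrpprc* stabilises mitochondrial mRNAs, fell by 1.01 (SE 0.12, edgeR adjusted p = 2.59e-06). All 14 values of this list were below 0.

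Of 6 tested genes of mitochondrial transcription and the nucleoid, 3 fell and 1 was called, with a median of −0.33. *tfb2m*, a transcription factor of the mitochondrial genome, fell by 0.62 (SE 0.12, edgeR adjusted p = 6.64e-04), and *mgme1*, a nuclease of mitochondrial DNA, had a value of 0.10 (SE 0.21). Of 13 tested genes for mitochondrial tRNA synthetases and the glutamine amidotransferase, 5 fell, none of them past both the fold and the FPKM threshold, with a median of −0.38. *sars2*, the seryl-tRNA synthetase, fell by 0.67 (SE 0.19, edgeR adjusted p = 0.0113), and *lars2*, the leucyl-tRNA synthetase, had a value of 0.01 (SE 0.20). These falls are under TMM scaling. With library size alone 5 assembly genes, 4 translation factors, 2 genes of transcription and 2 of tRNA charging fell. Under scaling on cardiomyocyte markers no gene in these 5 lists fell at an adjusted p under 0.05, while 12 of 22 assembly genes, 6 of 14 translation factors, 4 of 6 genes of transcription and 8 of 13 of tRNA charging rose, each a smaller share than the 76% of all genes that rose. The medians there were 0.21 for the proteins of the particle, 0.52 for assembly, 0.48 for translation factors, 0.61 for transcription and 0.56 for tRNA charging, beside 0.20 for the members and 0.95 for all genes.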

How the data were processed

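Sample labels gave the groups and the replicate numbers. Per the study's methods and the submitters' processing notes, the authors aligned reads to GRCz11 with STAR 2.6.1a and made the deposited counts, whole reads per RefSeq gene without normalization, with HTSeq 0.11.2. The authors also deposited FPKM, which the study's methods describe as made per transcript and added up over a gene's isoforms. The lengths that the deposited values imply were instead close to the gene with its introns, as given above. The 5 HTSeq summary rows did not enter library sizes: 59.6% to 65.6% of reads per library fell on no gene, 12.8% to 16.4% were not unique and 0.0287% to 0.0524% were ambiguous. Depth per library is given above, and reads without molecular identifiers are not independent molecules. Every pair of replicates differed beyond sampling noise, with a chi-square per gene of at least 20.5 in DKO and 10.3 in CTRL, and all 16 were kept.

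The main test was edgeR 4.0.16 in R 4.3.3 (filterByExpr, TMM, robust quasi-likelihood F-test, two-sided, Benjamini-Hochberg over 11750 genes), without covariates, where the authors used DESeq2 1.32.0. Log2 CPM used a prior count of 2. Changes relative to the family used size factors from the tested members. The alternatives were DESeq2 1.42.0, its size factors, library size alone, haemoglobin genes removed, scaling on 23 cardiomyocyte markers, other filters, the replicate number as a block and each library left out. Genes named are the 5 largest and 5 smallest falls, the 3 highest and 3 lowest in FPKM per subunit, members not lower, members that differ from the family and *mrpl41*. Other members and non-members named in counts, positions or figures were chosen after their values had been seen, or as the extremes of their list. The members and lists were chosen with earlier results of these data known. Symbols were matched to RefSeq's GRCz12tu table for names and spans only (73 of 74 members), and subunit positions come from mammalian structures. Figures were drawn with matplotlib 3.10.9.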

Additional observations from a re-analysis of the deposited data

Results flagged for a closer look

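Among 140 sets of 8 values that were searched for a library standing far from the others, 2 held one, where chance gives about 5% of such sets. *mrpl52* was at 29.3 CPM in DKO replicate 4, with the next DKO library at 23.1 CPM, and this library lay above the lowest CTRL value of 28.1 CPM. *mrps30* was at 136 CPM in CTRL replicate 5, with the next CTRL library at 106 CPM. Without CTRL replicate 5 the log2 fold change of *mrps30* was −0.27, against −0.34 with it.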

How the results depend on the processing

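Under DESeq2, its size factors, removal of the haemoglobin genes and both other filters on low counts, 63 members stayed lower, and it was 62 to 63 when single libraries were left out. The count called downregulated was 34 to 44 over single omissions, 25 with library size alone, where 59 were lower at the adjusted p and the median of all genes shifted by 0.14, 36 with a CPM of at least 5 in 8 libraries, 51 without the FPKM threshold and 49 without the fold threshold. The medians over single omissions were −0.79 to −0.68 for *mrpl* and −0.75 to −0.64 for *mrps* genes, and the difference between the subunits was −0.051 to −0.014, or 0.0042 with *mrps18a* and *mrps30* in the large subunit, an alternative chosen after seeing the data.

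Scaling on cardiomyocyte markers shifted the median of all genes by 0.92. It left 0 members lower at an adjusted or unadjusted p under 0.05 and 0 called downregulated, and gave 4 higher at the adjusted p, with 76% of all genes higher. The medians became 0.21 for *mrpl* and 0.20 for *mrps* genes. The members then stood at −0.74 against the median of all genes. Of the 53 members with a higher level there, values are given for the 19 that belong to the genes named by rule. Their reversed log2 fold changes were 0.37 (*mrpl1*), 0.26 (*mrpl11*), 0.17 (*mrpl13*), 0.14 (*mrpl17*), 0.21 (*mrpl20*), 0.40 (*mrpl3*), 0.035 (*mrpl30*), 0.079 (*mrpl41*), 0.42 (*mrpl46*), 0.80 (*mrpl58*), 0.56 (*mrps10*), 0.22 (*mrps14*), 0.34 (*mrps18a*), 0.56 (*mrps18b*), 0.15 (*mrps22*), 0.56 (*mrps30*), 0.088 (*mrps5*), 0.24 (*mrps7*) and 0.39 (*mrps9*). The cause was not tested.

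The replicate numbers share no stated source. Same-numbered DKO and CTRL libraries correlated at −0.27 to 0.11, so that they were not taken as paired. With the replicate block 63 members were lower, 40 were called and 12 differed from the family. That count was 13 to 16 over single omissions, 13 without a filter, 17 on summed counts and 19 with DESeq2. The spread of levels per kilobase of coding sequence was not computed, since no coding lengths were used here. Depth limits *mrpl1* and *mrpl58* most.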
